A study of Danio rerio with 6 samples.

Results

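The genes described here were expressed higher in all 3 libraries of exemestane-treated juvenile zebrafish than in control libraries 1 and 3. There were 127 such genes among the 32520 of the count table, or 0.718% of the 17677 genes with at least 10 counts in each EM library. Exemestane (EM) resembles a steroid and blocks aromatase, which converts androgens into estrogens. EM-juveniles were AB strain zebrafish exposed to EM at 10 µg/L over 32 days, and control juveniles were AB strain zebrafish kept for 32 days with 10 µL/L of the solvent dimethyl sulfoxide (DMSO) alone. The EM was given in the same solvent. Each group had 3 libraries, and each library held the whole bodies of 25 fish from 1 tank, so the 3 libraries of a group are 3 pools and not 3 fish.

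The members were chosen on their own CPM, the count of a gene per 1000000 counts of its library. A gene was taken when the lowest EM library, with 0.5 CPM added, was at least 1.5 times the higher of control libraries 1 and 3, with the same 0.5 added. This ratio of the lowest EM library to the highest of these controls is called the separation ratio below. Genes far lower in EM library 1 than in EM libraries 2 and 3 (8-fold or more) were left out, which removed 1 of 128 genes. The 127 genes were fewer than the limit of 150, so all were kept. Control library 2 took no part in the choice. Because these values chose the members, the differences between EM libraries and controls 1 and 3 are a description and carry no test. Values of 3 libraries are given in the order of replicates 1, 2 and 3. Upper-case symbols are those of the reference table, and where several genes share one, the Ensembl identifier is added. Of the members, 87 had a gene symbol and 40 had only a clone name or an identifier.

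Fish metabolise steroids and foreign compounds largely in the liver, where cytochromes P450 oxidise them and sulfotransferases and glutathione transferases attach groups that make them soluble. A juvenile also builds fins, skin, skeleton, lens and blood at the same time as its gonad takes the form of a testis or an ovary. In RNA of whole bodies, all of these tissues are measured together, and fewer cells of a type cannot be told apart from less RNA per cell.

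Control library 2 stood apart from the other libraries. Its total was 3169530 counts with 21182 genes detected, while the other 5 libraries held between 4057579 and 7804654 counts and between 24418 and 24966 genes. The 100 most abundant genes took 39.0% of its counts, against 21.3 to 25.1% elsewhere. On the CPM scale most genes were also lower in that library. The median log2 difference between control library 2 and the mean of controls 1 and 3 was -0.80 over the 17677 genes. It was -0.12 after division by DESeq2 size factors. What lowered these values was not tested. Markers of oocytes differed between the groups. The summed CPM of 16 oocyte genes was 5.38, 2.87 and 4.93 in EM libraries and 568, 77.3 and 233 in controls, and 15 of the 16 were called lower by DESeq2 (15 also without control library 2). That list was drawn from the tables published with the study, so it is not independent evidence. None of the 16 is among the members, and the part of this difference in the members' values was not tested.

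The widest separations were those of sult2st3, a sulfotransferase, cyp8b3, a cytochrome P450, and MYL11 (ENSDARG00000002589), a myosin light chain. All 3 actinodin genes of the fin fold were members, and the largest family was that of the gamma M2d crystallins of the lens, with 13. Embryonic globins, epidermal keratins, matrix proteins of cartilage and connective tissue, and the gonadal hormone amh, were also members. The separation ratio ran between 1.501 and 8.10, with a median of 1.70. It was at least 3 for 10 members and at least 2 for 30, while 72 members lay under 1.75. The median member had 13.1, 15.3 and 14.5 CPM in EM libraries, against 4.32, 3.16 and 4.78 CPM in controls. Summed over the members, the EM libraries held 7153, 9130 and 8909 CPM, and the controls 2663, 5451 and 3248 CPM. Roles could be given to 63 members in 11 groups. These were enzymes of sterol, steroid and foreign-compound metabolism (7), secreted signals and receptors (4), actinodins (3), keratins (3), extracellular matrix proteins (12), annexins (3), immune genes (4), muscle proteins (3), lens proteins (14), globins (4) and transcription factors (6). No role is given here to the other 64.

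The 3 EM libraries and all 3 controls did not overlap for 109 of the members, a pattern that 10.7% of the 17677 genes showed. The choice itself set every EM library of a member above controls 1 and 3. For the members the pattern therefore depends on control library 2 alone, which lay below the lowest EM library in 67.1% of the 17677 genes. Control library 2, the only library outside the choice, was above both other controls for 43 members (33.9%, against 22.1% of the 17677 genes) and below both for 77 (60.6%, against 67.1%). The choice favoured genes low in controls 1 and 3, which by itself raises the first share and lowers the second, so nothing is read from these differences. EM library 1 was the lowest EM library for 77 members (60.6%), where its share over the 17677 genes was 32.1%. DESeq2 called 18 members higher (14.2%), where 101 of 23966 genes tested were called higher, or 0.421%, and 0 members lower, where 0.663% of genes were. Without control library 2 it called 54 members, where 79 genes in all, or 0.337% of those tested, were called. The same libraries chose the members, so nothing is read from these calls, and fold changes below are given as descriptions with their standard errors (SE).

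**Figure D1:**
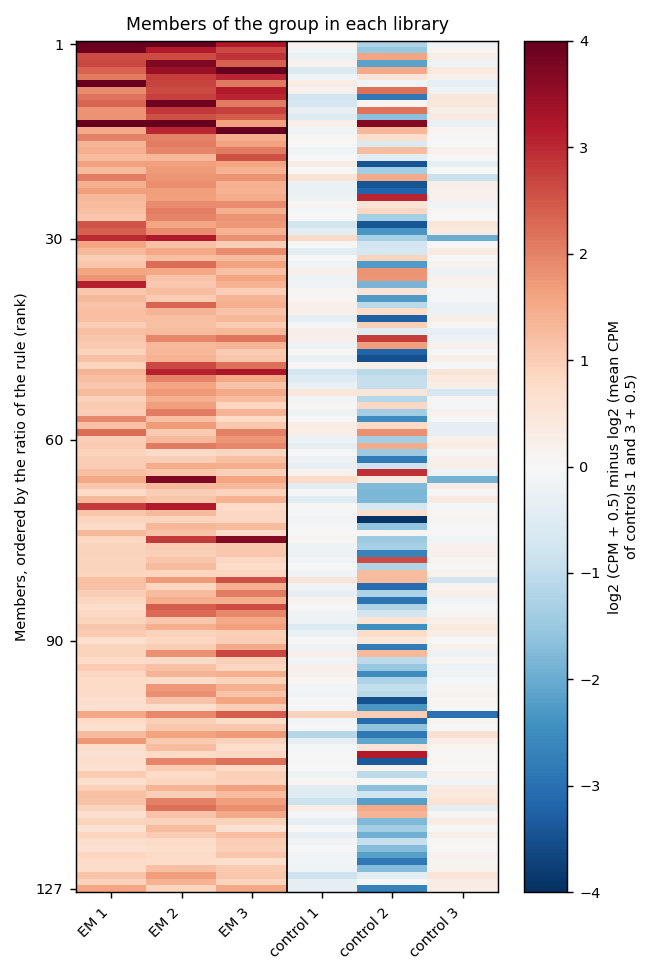
Expression of the 127 members (rows, ordered by separation ratio) in the 3 EM libraries, left of the line, and the 3 control libraries, as log2 (CPM + 0.5) minus log2 (mean CPM of controls 1 and 3 + 0.5), with colours capped at -4 and 4. The EM columns are all above 0 by the way the genes were chosen, whereas control 2 runs from deep blue to red: it was above both other controls for 43 members and below both for 77.

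The first of all members was sult2st3, which encodes a cytosolic sulfotransferase of the SULT2 family, whose members transfer sulfate to hydroxysteroids. It had 429, 393 and 193 CPM in EM libraries, against 23.4, 8.52 and 18.02 CPM in controls, with means of 338 ± 127 and 16.7 ± 7.54 CPM (SD, n = 3 each). The groups lay far apart, with a separation ratio of 8.10. The DESeq2 log2 fold change was 4.12 (SE 0.45). Of the other SULT2 and SULT3 genes, 7 were in the table, 6 of them with at least 10 counts in each EM library, and 0 of the 7 were called in either direction. sult2st1, also of the SULT2 family, was separated by a small margin, with 37.0, 24.7 and 38.7 CPM in EM libraries and 24.1, 4.42 and 22.8 CPM in controls.

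Both cyp8b2 and cyp8b3 were members. Their mammalian relative is sterol 12-alpha-hydroxylase, a cytochrome P450 of bile acid synthesis. cyp8b3 had 34.6, 20.8 and 14.0 CPM in EM libraries, against 1.66, 0.316 and 2.05 CPM in controls. cyp8b2 had 33.7, 11.7 and 7.64 CPM in EM libraries, against 1.83, 1.26 and 0.956 CPM in controls. In both genes EM library 1 was the highest and EM library 3 the lowest, the same order as in sult2st3, and no control reached any EM library. Their DESeq2 log2 fold changes were 3.83 (SE 0.63) and 3.45 (SE 0.76). The other gene of the family, CYP8B1 (ENSDARG00000053068), was no member. It had 59.2, 62.0 and 67.8 CPM in EM libraries and 79.9, 10.4 and 41.2 CPM in controls, so its groups overlapped. The members cyp8b2 and cyp8b3 are near neighbours in the RefSeq annotation, and how reads common to such similar genes were counted was not examined.

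The other 4 members among the enzymes had smaller separation ratios. cbr1, a carbonyl reductase, had 31.1, 42.8 and 37.0 CPM in EM libraries, against 17.4, 17.7 and 7.65 CPM in controls. hsd17b2, whose mammalian relative oxidises estradiol and testosterone to weaker steroids, had 4.48, 5.27 and 4.93 CPM in EM libraries, against 2.33, 0.316 and 2.46 CPM in controls. gstk4, a glutathione transferase of the kappa class, owed much of its mean to 1 library: it had 9.35, 43.8 and 9.61 CPM in EM libraries, against 5.32, 3.79 and 0.410 CPM in controls. The cytochrome P450 gene cyp2x10.1 had 4.36, 9.10 and 7.15 CPM in EM libraries, against 2.16, 0.947 and 2.59 CPM in controls. For all 7 enzymes control library 2 lay below the lowest EM library, and by 1.5-fold or more. It lay that far below in 49.6% of the 17677 genes, and the choice took genes with high EM values. Of 7 listed genes that make steroids, 0 were members. However, cyp11a1, cyp17a1, cyp19a1a, hsd3b2 and hsd17b1 had at most 0.957 CPM in any EM library. That is under the 10 counts in each EM library that the choice required, so they could not be members. Only hsd11b2 and fdx1 could, and 0.718% of the 17677 genes qualified, so nothing is read from their absence. Of the 7, 5 were tested, 0 were called higher and 1, cyp11a1, lower.

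amh was the member with the clearest tie to sex. It encodes anti-Müllerian hormone, a growth factor of the gonad's supporting cells that is higher in zebrafish testis than ovary. It had 12.7, 8.86 and 6.16 CPM in EM libraries, against 1.33, 0 and 2.73 CPM in controls. The lowest EM library was thus above every control, and control library 2 had 0 counts, where 3 counts would be 0.947 CPM. The DESeq2 log2 fold change was 2.52 (SE 0.77) with all 6 libraries, not a call (DESeq2 adjusted p = 0.0827). Without control library 2 it was 2.13 (SE 0.59) and a call. That fit held only the libraries that chose amh, so nothing is read from the call. Of 4 genes on the list of somatic gonad markers, amh was the sole member. gsdf had 13.5, 9.81 and 5.18 CPM in EM libraries, against 5.98, 0.947 and 9.42 CPM in controls, so its groups overlapped. insl3 and nr5a1b had at most 0.498 CPM in any library. Of the steroid genes, cyp17a1 and cyp19a1a were also planned as somatic gonad markers. cyp17a1 went the other way, at low levels, with 0.513, 0.718 and 0.493 CPM in EM libraries, against 3.16, 0.947 and 3.55 CPM in controls. Its DESeq2 log2 fold change was -2.40 (SE 0.86), not a call. cyp19a1a had at most 0.493 CPM in any library.

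The other secreted signals and receptors were GDF10, a growth factor of the TGF-beta family, NGFR, a receptor for neurotrophins, and NTNG1, a netrin relative that guides axons. GDF10 had 10.9, 15.1 and 14.8 CPM in EM libraries, against 6.81, 1.89 and 6.83 CPM in controls. NGFR had 6.02, 6.22 and 7.64 CPM in EM libraries, against 3.49, 0.316 and 3.69 CPM in controls. NTNG1 came close to the limit of 1.5, with 6.28, 9.10 and 6.16 CPM in EM libraries, against 3.32, 5.36 and 3.82 CPM in controls.

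All 3 actinodin genes of the table were members. Actinodins build the actinotrichia, the stiff fibrils that support the fin fold and the growing edge of the fins. and2 had 67.8, 99.6 and 125 CPM in EM libraries, against 8.47, 1.58 and 20.8 CPM in controls. and1 had 134, 159 and 200 CPM in EM libraries, against 39.9, 33.4 and 67.6 CPM in controls. and3, the least abundant in counts, had 3.84, 13.9 and 15.8 CPM in EM libraries, against 0.498, 0.316 and 1.91 CPM in controls. The groups did not overlap for any of the 3, which for members depends on control library 2 alone. EM library 1 was the lowest EM library and control library 2 the lowest control in each. The DESeq2 log2 fold changes were 3.10 (SE 0.67) for and2, 1.54 (SE 0.36) for and1 and 3.33 (SE 0.85) for and3. All 3 were among the calls with and without control library 2, where 0.421% and 0.337% of all genes tested were called higher. The libraries that chose these genes also gave the calls, so nothing is read from them. The actinodin list was drawn from the study's tables and so is not independent evidence.

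Of 22 keratin genes in the table, which encode the filaments of the skin, 3 were members. krtt1c19e, a type I keratin of the epidermis, had 248, 450 and 401 CPM in EM libraries, against 117, 45.7 and 113 CPM in controls. cyt1, another type I keratin, had 37.4, 103 and 81.1 CPM in EM libraries, against 19.1, 12.3 and 22.8 CPM in controls. The third, cyt1l, had 2.82, 10.5 and 7.64 CPM in EM libraries, against 1.33, 1.58 and 1.23 CPM in controls. In each of the 3, EM library 1 was the lowest of the EM libraries. Those 3 genes lie near each other in the RefSeq annotation, with another member, prf1.3, in the same run. Keratins as a whole were more even, with summed CPM of 11362, 12025 and 10618 in EM libraries and 8762, 4728 and 10884 in controls. The abundant krt5, for example, had 2695, 2533 and 2261 CPM in EM libraries, against 2124, 591 and 3150 CPM in controls. DESeq2 called 2 of the 22 higher, krtt1c19e and cyt1, and 0 lower, and the median log2 fold change of the 22 was 0.33, beside 0.00 for all genes tested. The same counts held without control library 2, in a fit of only the libraries that chose the members.

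Proteins of the extracellular matrix made up 12 members. The small leucine-rich proteoglycans bind collagen fibrils and set their spacing, and 4 of 16 were members: fmoda (fibromodulin), OMD (osteomodulin), chadlb (chondroadherin-like) and KERA (keratocan). fmoda had 39.0, 48.8 and 67.0 CPM in EM libraries, against 16.3, 7.26 and 22.5 CPM in controls. OMD had 53.7, 57.7 and 84.3 CPM in EM libraries, against 24.7, 3.79 and 33.3 CPM in controls. chadlb was nearly even among the EM libraries, with 13.5, 13.6 and 13.1 CPM, against 6.48, 0 and 7.65 CPM in controls. KERA, a proteoglycan of the cornea, was high in the library that was not used for the choice. It had 11.0, 12.4 and 12.8 CPM in EM libraries, against 6.98, 67.5 and 6.96 CPM in controls, and its DESeq2 log2 fold change over all 6 libraries was -1.83 (SE 0.98).

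Cartilage proteins among the members were cnmd (chondromodulin, which keeps vessels out of cartilage), UCMA (a small protein of the cartilage matrix) and MATN3 (matrilin 3, ENSDARG00000069245), of 27 cartilage matrix genes in the table. cnmd had 81.1, 83.1 and 89.7 CPM in EM libraries, against 35.9, 6.31 and 49.0 CPM in controls. UCMA had 27.5, 35.4 and 40.2 CPM in EM libraries, against 8.47, 1.89 and 16.8 CPM in controls. MATN3 had 17.6, 32.8 and 25.6 CPM in EM libraries, against 3.99, 1.26 and 11.3 CPM in controls. In 11 of the 27, every EM library was above controls 1 and 3, which the choice itself set for the 3 members. The share over all genes was not computed, so nothing is read from this count. The summed CPM of all 27 genes was 8136, 4243 and 5042 in EM libraries and 3700, 1762 and 7346 in controls, so these groups overlapped. Of the 27, DESeq2 called 0 higher and 0 lower, and without control library 2 it called 2 higher, both members. The latter fit held only the libraries that chose the members, so nothing is read from those calls.

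The matrix members also included tnxba, a tenascin of connective tissue, with 112, 99.3 and 122 CPM in EM libraries, against 32.2, 12.6 and 58.8 CPM in controls. The remaining 4 were emilin3a, SRPX, CLEC3A and itih6. SRPX had 44.6, 44.5 and 50.5 CPM in EM libraries, against 23.9, 12.3 and 28.0 CPM in controls. CLEC3A, a lectin of cartilage, had 6.15, 6.22 and 6.16 CPM in EM libraries, against 2.82, 8.20 and 3.55 CPM in controls. For 10 of the 12 matrix members control library 2 was below both other controls, and for the same number it lay 1.5-fold or more below the lowest EM library. KERA and CLEC3A were the exceptions in both counts. Over the 17677 genes these shares were 67.1% and 49.6%.

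**Figure D2:**
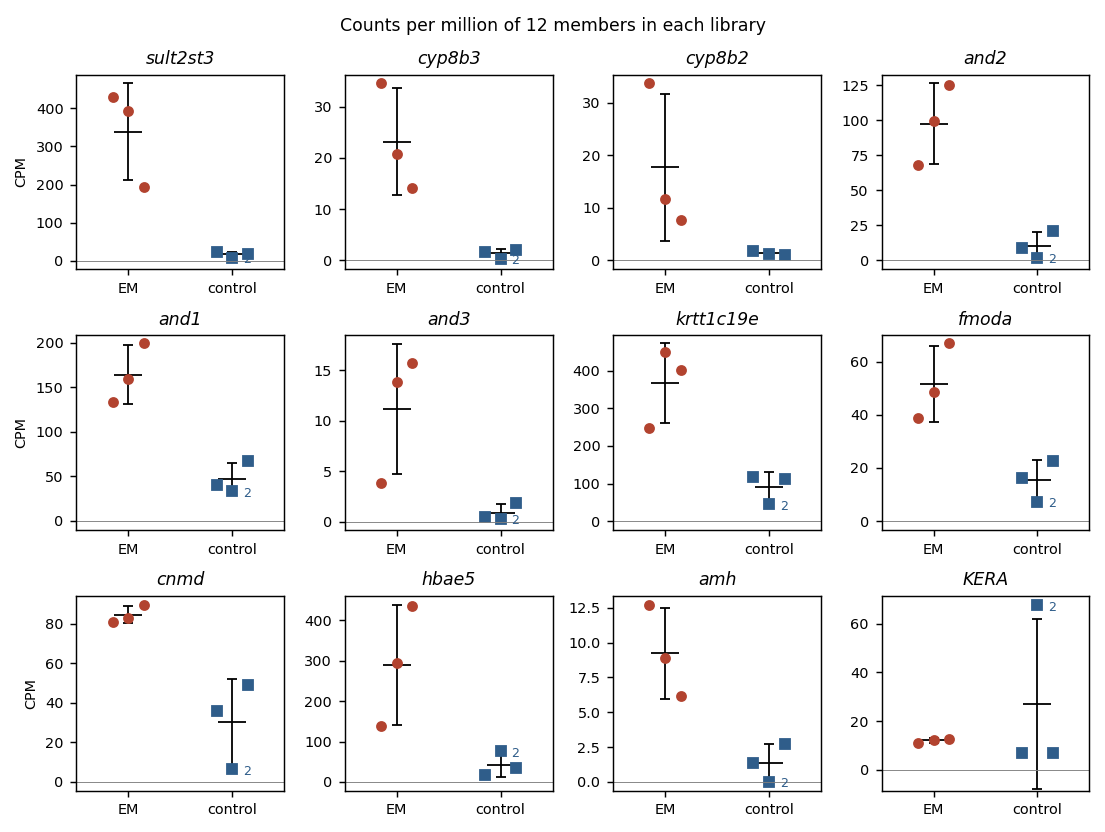
CPM of 12 members in each library, with EM libraries as circles, controls as squares (the 2 marks control library 2), and the mean with its SD (n = 3 libraries) as a black line with bars. In the enzymes, actinodins, krtt1c19e, fmoda, cnmd, hbae5 and amh every EM library is above every control, whereas for KERA control 2 at 67.5 CPM is far above the EM libraries.

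The annexins bind membranes in the presence of calcium, and 3 of the 17 in the table were members. anxa1c had 108, 110 and 119 CPM in EM libraries, against 56.3, 33.4 and 37.0 CPM in controls. Its neighbour anxa1d had 23.1, 22.3 and 25.4 CPM in EM libraries, against 14.0, 5.36 and 12.4 CPM in controls. anxa5a had 4.61, 4.79 and 4.68 CPM in EM libraries, against 1.66, 0.316 and 2.87 CPM in controls. The EM libraries were close to each other in all 3 genes. anxa1c alone was among the DESeq2 calls, with a log2 fold change of 1.12 (SE 0.32).

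Immune genes were few. si:dkey-79f11.10, which the reference table names ifi44a8 after an interferon-induced gene, had 26.7, 34.5 and 6.16 CPM in EM libraries, against 3.49, 1.89 and 3.28 CPM in controls. ifit16, of a family induced by interferon, had 3.33, 8.14 and 4.19 CPM in EM libraries, against 1.49, 0.316 and 0.956 CPM in controls. prf1.3, a perforin, by which killer cells open holes in their targets, had 2.69, 3.83 and 2.96 CPM in EM libraries, against 0.831, 0 and 0.819 CPM in controls. STX11, a syntaxin of secretory immune cells in mammals, had 29.2, 30.9 and 37.2 CPM in EM libraries, against 18.8, 5.36 and 19.1 CPM in controls. In all 4 every EM library was above every control, and control library 2 was the lowest of the 6. The choice set the order against controls 1 and 3. Control library 2 lay below the lowest EM library in 67.1% of the 17677 genes.

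Of 27 skeletal myosin and troponin I genes, which build the contractile apparatus, 3 were members. MYL11 (ENSDARG00000002589), a regulatory light chain of fast myosin, had 122, 121 and 148 CPM in EM libraries, against 16.3, 59.6 and 22.9 CPM in controls. myhz1.3, a fast myosin heavy chain and the most abundant member, had 2541, 2976 and 3107 CPM in EM libraries, against 1061, 3886 and 1376 CPM in controls. smyhc1, a slow myosin heavy chain, had 287, 307 and 324 CPM in EM libraries, against 133, 60.9 and 173 CPM in controls. Of the 3, myhz1.3 alone had control library 2 above every EM library. In 7 of the 27 genes, every EM library was above controls 1 and 3, which the choice itself set for the 3 members. The share over all genes was not computed, so nothing is read from this count. Control library 2 was rich in the family: the summed CPM of the 27 genes was 31223, 30474 and 29237 in EM libraries and 35270, 67144 and 30048 in controls. TNNI2 (ENSDARG00000035958), no member, was also higher in every EM library, with 130, 162 and 154 CPM, against 88.5, 37.2 and 109 CPM in controls. Several other genes of the family overlapped between the groups or went the other way. The much more abundant MYL11 gene ENSDARG00000053254 had 5967, 6220 and 5773 CPM in EM libraries, against 7255, 17603 and 6423 CPM in controls. The fast myosin myhc4 had 3869, 1265 and 970 CPM in EM libraries, against 9088, 9217 and 5280 CPM in controls, and was called lower (DESeq2 adjusted p = 0.0313). Of the 27 genes DESeq2 called 0 higher and 2 lower, and without control library 2 it called 4 higher, 3 of them members, and 1 lower. The latter fit held only the libraries that chose the members, so nothing is read from its calls of higher genes. The myosin gene myha, not counted in the 27, was also called lower (DESeq2 adjusted p = 0.0333). It had 5415, 4145 and 3499 CPM in EM libraries, against 10616, 17970.5 and 8684 CPM in controls. All 3 genes on the muscle list (myhc4, myha and tnni2a.3) were called lower, and 2 of them without control library 2. The fast myosins are close copies of each other, so their separate values are uncertain.

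The largest family among the members was that of the gamma M2d crystallins, water-soluble proteins packed into the fibre cells of the fish lens. Of 21 crygm2d genes in the table, 20 had at least 10 counts in each EM library and 13 were members, with separation ratios between 1.52 and 3.05. They lie in 1 run in the RefSeq annotation and are closely related copies, so reads may have been shared among them and the 13 genes are not 13 separate observations. crygm2d13, the most abundant of the members, had 137, 152 and 128 CPM in EM libraries, against 65.9, 92.4 and 62.7 CPM in controls. crygm2d17 had 17.7, 36.9 and 34.7 CPM in EM libraries, against 3.82, 23.3 and 5.73 CPM in controls. crygm2d6, the member of the family with the highest ratio, had 4.87, 15.3 and 3.94 CPM in EM libraries, against 0.166, 0.631 and 0.956 CPM in controls. It was the only one of the 21 called by DESeq2 with all libraries, at a log2 fold change of 3.52 (SE 0.93).

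Control library 2 was above both other controls for 11 of the 13 gamma M2d crystallins, and 1.5-fold or more below the lowest EM library for 4. Over the 17677 genes these shares were 22.1% and 49.6%. Over the whole family of 21, the summed CPM was 866, 1213 and 885 in EM libraries and 458, 851 and 410 in controls, so on this sum control library 2 lay just below EM library 1. Without control library 2 DESeq2 called 13 of the 21 higher, 12 of them members, where 0.337% of all genes tested were called. That fit held only the libraries that chose the members, so nothing is read from these calls. The 39 other crystallin genes, of the alpha, beta and other gamma classes, held 0 members. Their summed CPM was 4394, 4919 and 3018 in EM libraries, against 3512, 4787 and 2876 CPM in controls, and crybb3, a beta crystallin, was called lower with all libraries but not without control library 2, with 15.9, 7.66 and 1.48 CPM in EM libraries, against 58.0, 94.3 and 18.7 CPM in controls. LIM2, a membrane protein of lens fibre cells (ENSDARG00000015445), was also a member, with 27.5, 30.2 and 25.9 CPM in EM libraries, against 13.3, 19.6 and 9.83 CPM in controls.

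**Figure D3:**
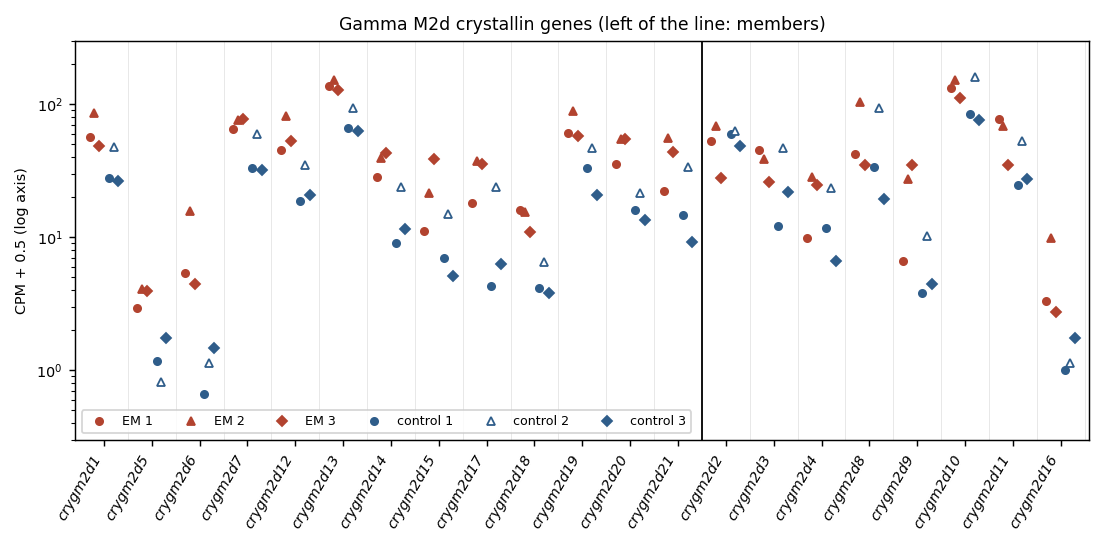
CPM + 0.5 (log axis) of the 21 gamma M2d crystallin genes in the 6 libraries, with the 13 members left of the line and the other 8 right of it. EM libraries are red and controls blue, and the open triangle is control 2, which lies above the other controls for 11 of the 13 members.

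Globins, the oxygen carriers of red blood cells, gave 4 members among 16 genes, and in each of them EM library 1 was the lowest EM library. hbae5, an embryonic alpha-type globin, had 138, 294 and 436 CPM in EM libraries, against 17.8, 76.4 and 35.2 CPM in controls. The gene named HBE1 with the identifier ENSDARG00000045143 had 207, 345 and 507 CPM in EM libraries, against 62.8, 258 and 48.7 CPM in controls. HBE1 ENSDARG00000087390 had 3.72, 11.3 and 22.4 CPM in EM libraries, against 0.831, 3.16 and 1.09 CPM in controls. hbae1.1 was close to the detection limit, with 1.92, 3.35 and 4.19 CPM in EM libraries, against 0, 0.316 and 0.137 CPM in controls, where the 3 controls together held 2 reads. Its DESeq2 log2 fold change of 4.39 (SE 1.25) therefore rests on very few control reads.

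In all 4 globins control library 2 was the highest control in CPM, and for ENSDARG00000045143 it was above EM library 1. For hbae1.1 this order rests on 1 read each in control libraries 2 and 3. In 8 of the 16 globins, every EM library was above controls 1 and 3, which the choice itself set for the 4 members. The share over all genes was not computed, so nothing is read from this count. The abundant hbaa1, an adult alpha-type globin, was not among the 8. It had 516, 534 and 656 CPM in EM libraries, against 542, 311 and 603 CPM in controls. HBE1 ENSDARG00000113599 met the separation ratio but was the 1 gene left out for its low value in EM library 1, with 2.56, 66.1 and 62.1 CPM in EM libraries, against 0.997, 5.36 and 0.546 CPM in controls. hbae1.3 was no member either, with 0.897, 8.86 and 17.7 CPM in EM libraries, against 0.332, 0 and 0.956 CPM in controls, yet was called higher by DESeq2 (adjusted p = 0.0493) and not without control library 2. Of the 16 globins DESeq2 called 2 higher and 0 lower, where 0.421% of all genes tested were called higher. Without control library 2 it called 4 higher, 3 of them members, where 0.337% of all genes were. The latter fit held only the libraries that chose the members, so nothing is read from these calls.

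Transcription factors made up 6 members, all at low levels. foxn1, the factor of the thymus epithelium, had 9.99, 7.42 and 6.41 CPM in EM libraries, against 2.99, 1.58 and 3.00 CPM in controls. tbxta, the Brachyury homologue of the notochord, had 6.53, 9.81 and 6.41 CPM in EM libraries, against 1.33, 1.89 and 4.10 CPM in controls. emx3, a homeobox factor of the forebrain, had 9.61, 9.34 and 9.12 CPM in EM libraries, against 4.98, 0.316 and 5.87 CPM in controls. Control library 2 reversed the order for LHX4, a LIM homeobox factor, which had 6.66, 6.22 and 5.42 CPM in EM libraries, against 2.99, 22.7 and 2.18 CPM in controls. her15.2 and HELT, both basic helix-loop-helix repressors, had at most 3.94 CPM in any EM library. DESeq2 called 0 of the 6 with or without control library 2.

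Among the 64 members with no role given here, si:dkey-33c14.3 and AL954682.1 had the largest ratios of those with only a clone name that DESeq2 also called. si:dkey-33c14.3 had 74.8, 152 and 62.1 CPM in EM libraries, against 13.0, 2.21 and 9.69 CPM in controls. AL954682.1 had 8.58, 14.6 and 13.3 CPM in EM libraries, against 1.33, 0.316 and 2.87 CPM in controls. zgc:136930 was the most abundant of the 64, with 422, 716 and 533 CPM in EM libraries, against 126, 95.3 and 238 CPM in controls. The groups did not overlap for any of these 3 genes, as for 109 of the 127 members and 10.7% of the 17677 genes. For members this depends on control library 2 alone, so nothing is read from it. cenpp, named for a centromere protein and a near neighbour of OMD, had the widest EM range of the genes called, with 5.00, 21.1 and 38.4 CPM in EM libraries, against 2.82, 0.631 and 2.32 CPM in controls. si:ch211-163m16.7 was wider still: it had 38.6, 79.7 and 3.94 CPM in EM libraries, against 1.16, 17.7 and 0.683 CPM in controls, so its EM library 3 lay below control library 2. cldna, a claudin of tight junctions, had 91.0, 100 and 87.0 CPM in EM libraries, against 48.5, 5.68 and 55.7 CPM in controls.

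The lowest and the highest EM library differed from member to member. Where EM library 1 was not the lowest of the 3, EM library 3 was so for 33 members (26.0%, against 32.8% of the 17677 genes) and EM library 2 for 17 (13.4%, against 35.1%). With control library 3 left out of the choice, EM library 1 was the lowest for 36.7% of the genes that then qualified, near its share over the 17677 genes. The share of EM library 1 thus depended on the controls that made the choice, and nothing is read from it. The highest EM library was 2 for 55 members, 3 for 50 and 1 for 22. The highest EM library was at most 1.5 times the lowest for 61 members, at least 3 times for 13, and 1.51 times for the median member. The cyp8b genes, sult2st3 and amh were highest in EM library 1, and actinodins, keratins and globins lowest in it.

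Control library 2 lay below the lowest EM library for the same 109 of the 127 members (85.8%), against 67.1% of the 17677 genes. The members' share is raised by the choice itself, which took genes with high EM values. By at least 1.5-fold it was below for 92 members (72.4%) and 49.6% of the 17677 genes. After division by size factors, which take up most of the general shift of that library, it was below the lowest EM library for 89 of the 127 members and 45.4% of the 17677 genes. The depth of this library limits the check, as 43 members (33.9%) had at most 3 counts in it, against 13.9% of the 17677 genes, and 15 had 0. The 43 members for which it was above both other controls included 12 of 14 lens members, 4 of 4 globins and 2 of 3 muscle members. They included 0 of the actinodins, annexins and immune genes and 2 of 12 matrix members. Among the globins, hbae1.1 had only 1 read in control library 2. Why control library 2 differed was not tested.

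**Figure D4:**
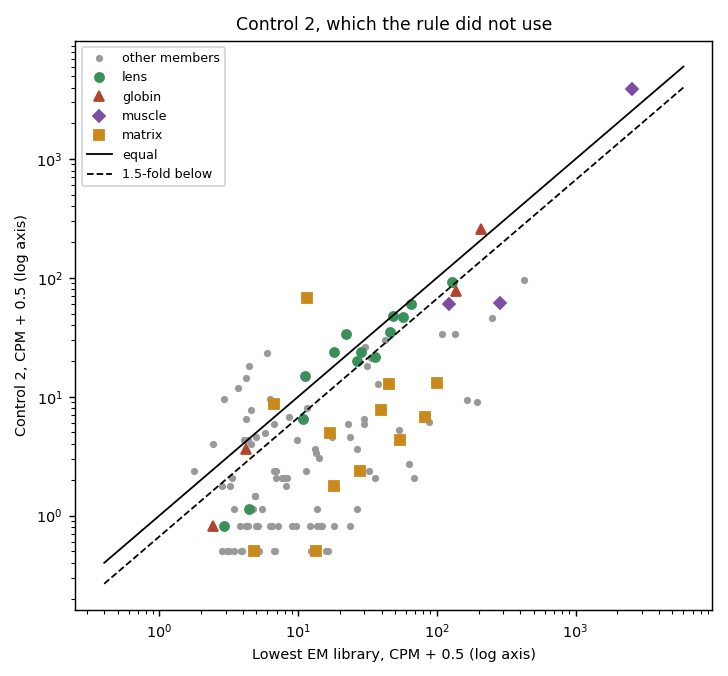
CPM + 0.5 of each member in control library 2 against its lowest EM library, both on log axes, with lens, globin, muscle and matrix members marked, a line of equal values (solid) and a line 1.5-fold below it (dashed). Most members lie under the solid line (109 of 127), and under the dashed line lie 10 of 12 matrix members, 4 of 14 lens members and 2 of 4 globins.

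Control library 2 was above every EM library for 8 members. They were KERA, LHX4, cul5b, tm4sf21b, ccdc15, myhz1.3, CLEC3A and NKAIN4. cul5b, a cullin of ubiquitin ligases, had 3.84, 4.55 and 3.70 CPM in EM libraries, against 1.66, 13.9 and 2.05 CPM in controls. tm4sf21b, of the transmembrane 4 L6 family, had 2.43, 3.11 and 2.71 CPM in EM libraries, against 0.498, 9.15 and 0.819 CPM in controls. Apart from NKAIN4, these members had DESeq2 log2 fold changes at or under 0 over all libraries.

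The 18 members called by DESeq2 were sult2st3, cyp8b3, cyp8b2, hbae1.1, crygm2d6, and1, and2, and3, krtt1c19e, cyt1, anxa1c, fmoda, cenpp, zgc:136930, AL954682.1, si:dkey-33c14.3, si:dkey-79f11.10 and si:ch211-196c10.15. The median log2 fold change of the members was 1.42, with a range of -1.83 to 4.39. Of these, 17 were among the 54 called without control library 2, and hbae1.1 was not. Fewer members were called without EM library 2 (5 of 23 genes called higher), EM library 3 (6 of 19) or control library 1 (7 of 43). Without EM library 1, 15 of the 406 genes called higher were members, and without control library 3, 22 of 111. The edgeR quasi-likelihood test called 0 members and 0 genes, with 78 of the 125 members it tested at an unadjusted p under 0.05, and 759 of 19264 genes. At an unadjusted p under 0.05 DESeq2 had 1673 genes.

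Position was not used in the choice. Of the members, 90 could be matched by name to the RefSeq annotation of the GRCz12tu assembly, 89 of them protein-coding. Counting members with at most 5 genes between them as neighbours, 27 fell into 7 runs. Runs among other genes were not counted, so nothing is read from this number. Besides the 13 crystallins and the keratin run, the runs were pairs: fmoda with zgc:113307, zgc:153932 with si:ch211-226h7.3, cyp8b2 with cyp8b3, cenpp with OMD, and anxa1d with anxa1c. zgc:113307, beside fmoda, had 35.2, 45.5 and 47.6 CPM in EM libraries, against 6.31, 1.58 and 22.5 CPM in controls.

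The threshold cut through a continuous range. Just inside it were zgc:153932, ENSDARG00000058631 and tbxta, with ratios of 1.501 to 1.503, and just outside it tor1l2, gdpd3a, cldn30, TMEM132D and the fast myosin myhz1.1, with ratios of 1.4938 to 1.4996. In all, 71 genes had a ratio between 1.4 and 1.5. At the minimum of counts, si:dkey-165e24.1 was kept with 10, 13 and 11 counts in EM libraries, against 1, 6 and 4 counts in controls. A further 5 genes met the ratio but had 9 counts in their lowest EM library, among them crygm2d16, with 22, 39 and 9 counts in EM libraries, against 3, 2 and 9 counts in controls. The members' lowest EM count was under 20 for 29 genes and at least 100 for 45, and the values of those 45 are the more precise.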

How the data were processed

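The authors made stranded poly(A) libraries from whole juveniles, aligned reads to GRCz11 with HISAT2 2.0.5, removed duplicate reads with SAMtools 1.5 and counted exonic reads on the reverse strand with HTSeq 0.9.1 (tool versions from the submitters' processing notes). The deposited values are raw read counts per Ensembl gene. Duplicate removal limits the counts of abundant genes, and strand-specific counting separates antisense genes.

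CPM, separation ratios and groups (from sample titles) were computed from these counts. The members and gene lists were chosen with earlier results of these data known. Genes were named from the study's tables and the reference table. Named genes came from the 30 members of largest ratio with a symbol, listed genes, unnamed members of largest ratio and genes beside thresholds. Not all of these are described: crygm2d18, GAS2, cdh27 and RPRML, for example, are not. Families, roles and further members were chosen after their values were seen.

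DESeq2 1.42.0 in R 4.3.3 (two-sided Wald test, Benjamini-Hochberg over all genes, adjusted p under 0.05, no covariate) was the main fit, as in the study, and edgeR 4.0.16 an alternative. Both were tested on simulated data. Other scalings, pseudocounts, count minimums, a replicate block and leaving out each library were tried. Totals ranged between 3169530 and 7804654 counts. A floor of 3 counts covers counting error only. p-values measure the spread between libraries, each a pool from 1 tank, so differences of tank, pool and library preparation cannot be told apart. Sequences were not analysed here.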

Additional observations from a re-analysis of the deposited data

How the results depend on the processing

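Leaving a library out relaxes the rule, since the lowest EM or highest control value is then taken over fewer libraries. With each of the 5 libraries left out in turn, 202 to 1145 genes qualified, all 127 members among them, and control library 2 was below the lowest EM library for 180 to 1064 of them, and 1.5-fold or more below for 161 to 986. EM library 1 was the lowest EM library for 128 to 420, which is 36.7% of those that qualified without control library 3 and 58.6 to 72.0% of the others. With a ratio of at least 2, 30 genes qualified. Other settings kept the number within 1.5 times: DESeq2 size factors gave 96, TMM-scaled CPM 100, a pseudocount of 1 107, a minimum of 20 counts 98, no minimum 176, and control library 2 added to the controls, an alternative chosen after seeing the data, 92. Control library 2 was below the lowest EM library for 64 of the 96 and 70 of the 100, and 1.5-fold or more below for 59 of the 96.

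Over all genes DESeq2 called 101 higher, 104 with TMM factors and 34 with a filter of 10 counts in at least 3 libraries, while edgeR called 0 (759 genes at an unadjusted p under 0.05). Leaving out 1 library gave 19 to 406 calls (19 without EM library 3, 23 without EM library 2, 43 without control library 1, 406 without EM library 1). Whether the replicate numbers shared by the groups pair the libraries was not decided. The deviations of same-numbered libraries correlated at -0.15, 0.21 and -0.20 over 13119 genes. Libraries of different numbers were not correlated for reference, so these values cannot show or exclude a pairing. With the replicate number as a block DESeq2 called 64 genes higher and 110 lower. edgeR with that block, a fit added after seeing the data, called 1 higher and 47 lower. Of the fold changes of 52 members refitted under the alternatives (hbae1.1 was not fitted by edgeR), 7 values in 4 members had another sign than with all libraries. Depth limits control library 2 most, where 43 members had at most 3 counts.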
